A study of Mus musculus with 9 samples.

Results

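The CHD7 peaks at protein-coding promoters were the 585 of 3761 peaks in the deposited CUT&RUN list whose midpoint lay at most 1 kb from the nearest 5′ end of a protein-coding gene, counting every annotated transcript. CHD7 is an ATP-dependent chromatin remodeller, and variants in its human gene cause CHARGE syndrome, which often includes heart defects. The study collected cells at day 5 of the differentiation of C57BL6-derived mouse ESCs to cardiomyocytes, with genotype WT in every group and 500000 cells per reaction. It made 9 libraries in 3 groups of 3 biological replicates, with an antibody to CHD7 (CHD7), with control IgG (IgG) and without antibody (Input), and the labels call the cells cardiac progenitor (CP) cells. In CUT&RUN, an antibody directs a nuclease to a chromatin protein, and the DNA cut out around that protein is sequenced. The list is 1 set of positions for the 3 CHD7 libraries together, made by the authors from peaks called per sample against IgG and found in at least 2 replicates. It holds no read count, height or P-value, so library depth, replicate spread and peak strength are unknown here. Expression was not part of these values, and the labelled cell type could not be checked against its markers.

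The promoter is the DNA around the 5′ end of a transcript, where general transcription factors and RNA polymerase II assemble. Many mouse promoters are rich in CpG dinucleotides and carry binding motifs of widely expressed factors, among them the GC box bound by SP and KLF proteins and the CCAAT box bound by NFY. Genes can have several promoters, and many 5′ ends in an annotation belong to transcripts without a protein product. Factors that specify cell types, such as the GATA family in the heart, are often described at enhancers as well as at promoters. The 5′ ends used here were those of GENCODE M21 on mm10, and for each of 21911 genes 1 transcript was taken to give its main start site. Members with a main start site within 1 kb numbered 414 (70.8%, 95% CI 67.0 to 74.3), and the other 171 (29.2%) lay only at alternative 5′ ends. Distances are always to the nearest 5′ end, which at a main start site can be that of another transcript. All intervals given here are 95% intervals for counting error (Wilson for a share, Newcombe for a difference), and peaks are not replicates of a condition.

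In all, 9 stretches of at most 200 bases are shown from inside promoter peaks. Some of them show a contrast met in the results below, that of CpG-rich main start sites against CpG-poor alternative ends. Not every member follows it, as 191 of 414 members at main start sites (46.1%) were CpG-rich and that of Zfp78 was not. The stretches were read from the GRCm38 sequence along the strand of the nearest transcript. Capitals mark matches to any of the 16 motifs searched, on either strand. The first 7 belong to members nearest to a 5′ end among contractile, chromatin and signalling genes. The stretch of Tpm1, which encodes a tropomyosin, is chr9:67044355-67044554 (minus strand). Smarcd2, a subunit gene of the BAF remodelling complex, is shown at chr11:106273019-106273218 (minus). Smad3, a transducer of TGF-beta signals, is shown at chr9:63665475-63665674 (minus), and Gsk3b, a kinase of the WNT pathway, at chr16:38088909-38089000 (plus). Mapk3, the ERK1 kinase gene, is shown at chr7:126760397-126760596 (plus), and Maml1, a co-activator of Notch signalling, at chr11:50292312-50292510 (minus). The stretch of Cdon, a co-receptor for hedgehog ligands, is chr9:35423316-35423515 (plus). The last pair are the widest member with a GC box, at Zfp78 (chr7:6362435-6362634, plus), and the widest with a GATA motif, at Ubr4 (chr4:139416305-139416504, plus).
Tpm1: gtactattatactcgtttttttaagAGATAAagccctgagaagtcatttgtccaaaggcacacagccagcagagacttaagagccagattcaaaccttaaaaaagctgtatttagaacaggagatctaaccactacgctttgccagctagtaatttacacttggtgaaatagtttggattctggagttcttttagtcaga
Smarcd2: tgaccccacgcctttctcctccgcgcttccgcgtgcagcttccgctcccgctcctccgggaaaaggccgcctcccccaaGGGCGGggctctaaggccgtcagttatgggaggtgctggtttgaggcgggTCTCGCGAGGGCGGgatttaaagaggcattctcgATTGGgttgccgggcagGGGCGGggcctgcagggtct
Smad3: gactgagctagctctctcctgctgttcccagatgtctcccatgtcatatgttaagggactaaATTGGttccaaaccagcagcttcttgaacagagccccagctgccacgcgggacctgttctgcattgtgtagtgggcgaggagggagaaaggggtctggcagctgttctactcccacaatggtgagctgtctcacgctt
Gsk3b: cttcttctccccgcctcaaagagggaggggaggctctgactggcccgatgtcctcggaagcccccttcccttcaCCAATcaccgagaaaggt
Mapk3: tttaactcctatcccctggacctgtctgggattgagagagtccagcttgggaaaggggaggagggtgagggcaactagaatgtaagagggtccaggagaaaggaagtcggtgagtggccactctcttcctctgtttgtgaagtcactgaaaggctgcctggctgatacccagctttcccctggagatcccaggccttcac
Maml1: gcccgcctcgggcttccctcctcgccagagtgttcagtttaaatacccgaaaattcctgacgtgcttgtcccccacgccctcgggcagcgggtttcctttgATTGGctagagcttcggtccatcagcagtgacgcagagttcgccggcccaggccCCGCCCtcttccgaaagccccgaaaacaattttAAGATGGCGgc
Cdon: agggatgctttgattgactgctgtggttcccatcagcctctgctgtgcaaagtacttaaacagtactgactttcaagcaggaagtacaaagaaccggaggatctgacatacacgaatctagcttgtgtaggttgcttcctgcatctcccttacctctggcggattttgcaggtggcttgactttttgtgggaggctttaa
Zfp78: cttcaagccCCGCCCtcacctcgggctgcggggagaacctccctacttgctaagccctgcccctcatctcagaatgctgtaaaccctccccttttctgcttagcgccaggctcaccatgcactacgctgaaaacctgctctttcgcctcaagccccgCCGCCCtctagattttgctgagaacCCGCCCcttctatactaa
Ubr4: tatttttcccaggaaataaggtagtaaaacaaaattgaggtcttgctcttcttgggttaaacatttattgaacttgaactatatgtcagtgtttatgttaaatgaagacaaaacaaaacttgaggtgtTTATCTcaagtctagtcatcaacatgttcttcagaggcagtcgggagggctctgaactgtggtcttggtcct
The Smarcd2 stretch held 18 CpG dinucleotides and 5 motif matches, to the GC box, the CCAAT box and the ZBTB33/BANP motif. The Maml1 stretch held 16 CpG dinucleotides and a match each to the GC box, the CCAAT box and YY1. Both are from members at a main start site. At the alternative ends of Tpm1 and Ubr4 the stretches held 2 and 1 CpG dinucleotides, with a GC content of 38.0% and 37.0%, and a single GATA match each. The Mapk3 stretch, upstream of an alternative end, held 1 CpG dinucleotide and none of the 16 motifs. The 200 bp around the midpoint of the same member, the window used for the motif shares below, held an E-box (CACGTG). The Smad3 and Gsk3b stretches each held 1 motif match, a CCAAT box, and the Zfp78 stretch held 3 GC boxes.

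Promoter peaks were centred close to the nearest 5′ end, more often upstream than downstream of it. Members were chosen by this distance, taken to the nearest of a median of 2 annotated ends within 1 kb (quartiles 1 and 4). Both choices favour short distances, and their part in the pattern was not tested. The median distance from the midpoint to the nearest 5′ end was 187.5 bp (quartiles 67 and 421.5 bp), and counted with its sign, negative for upstream, the median was -43.5 bp. Midpoints were upstream in 354 members (60.5%, 95% CI 56.5 to 64.4), downstream in 229 (39.1%) and exactly at the 5′ end in 2. The share upstream was 63.8% at main start sites and 52.6% at alternative ends, where the interval (95% CI 45.2 to 60.0) held an even split. Within 100 bp lay 194 members (33.2%), within 250 bp 339 (57.9%) and within 500 bp 464 (79.3%, 95% CI 75.8 to 82.4). The peak itself ran across the nearest 5′ end in 461 members (78.8%). In bins of 100 bp, the first bin upstream held 118 midpoints and the first downstream 76, against 9 in the bin farthest upstream and 6 in the bin farthest downstream.

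**Figure D1:**
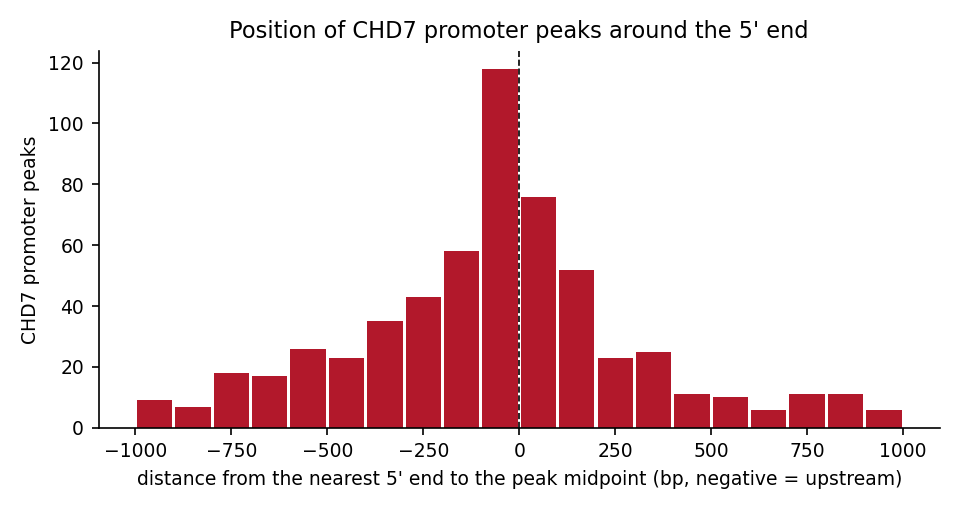
The number of CHD7 promoter peaks (vertical axis) is plotted in bins of 100 bp by the signed distance in bp from the nearest 5′ end to the peak midpoint (horizontal axis, upstream negative). The bin just upstream is the highest with 118 peaks, the bin just downstream holds 76, and the outermost bins hold 9 and 6.

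The limit of 1 kb did not mark an end of the distribution, as 585 peaks lay within 1 kb and 777 within 2 kb. Just inside it lay the members at Myh10, a non-muscle myosin gene (999 bp downstream), at Acsl3, an acyl-CoA synthetase gene (994 bp upstream), and at Klf4, a pluripotency factor gene (991 bp upstream). Just outside lay peaks at Tenm4, a teneurin gene (1003 bp upstream), at Lpcat4, a phospholipid acyltransferase gene (1007 bp downstream), and at Dguok, a deoxyguanosine kinase gene (1018 bp downstream).

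By the annotation at the midpoint, 202 members (34.5%) lay outside protein-coding genes and 203 (34.7%) in an intron. A 5′ UTR held 99 (16.9%), a coding sequence 49 (8.38%), a noncoding exon 26 (4.44%) and a 3′ UTR 6 (1.03%). Members at main start sites and members only at alternative ends differed here, with 92 of 414 (22.2%, 95% CI 18.5 to 26.5) and 111 of 171 (64.9%, 95% CI 57.5 to 71.7) in an intron. For 187 members (32.0%), no transcript at the nearest 5′ end was of the protein-coding type in the annotation. This held for 22.0% of the members at main start sites and 56.1% of those at alternative ends. The median distance was 154 bp at main start sites and 272 bp at alternative ends, and the midpoint was upstream in 63.8% (95% CI 59.0 to 68.3) and 52.6% (95% CI 45.2 to 60.0). A lncRNA also began within 1 kb of 59 members (10.1%).

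Promoter peaks were wider than the other CHD7 peaks. Their median width was 826 bp (95% CI 767 to 872, quartiles 583 and 1195, range 373 to 3320 bp), and that of the 3176 other peaks was 687 bp (95% CI 676 to 701, quartiles 521 and 1029), a difference of 139 bp. The intervals of the medians did not overlap, although the quartile ranges did. Of the promoter peaks, 86 (14.7%) were among the widest 10% of all peaks, compared with 290 of the other peaks (9.13%), a difference of 5.57 percentage points (95% CI 2.73 to 8.81). Together the members covered 560333 bp. Width depends on how the authors' calls were joined across replicates, which was not given in the sources used here.

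**Figure D2:**
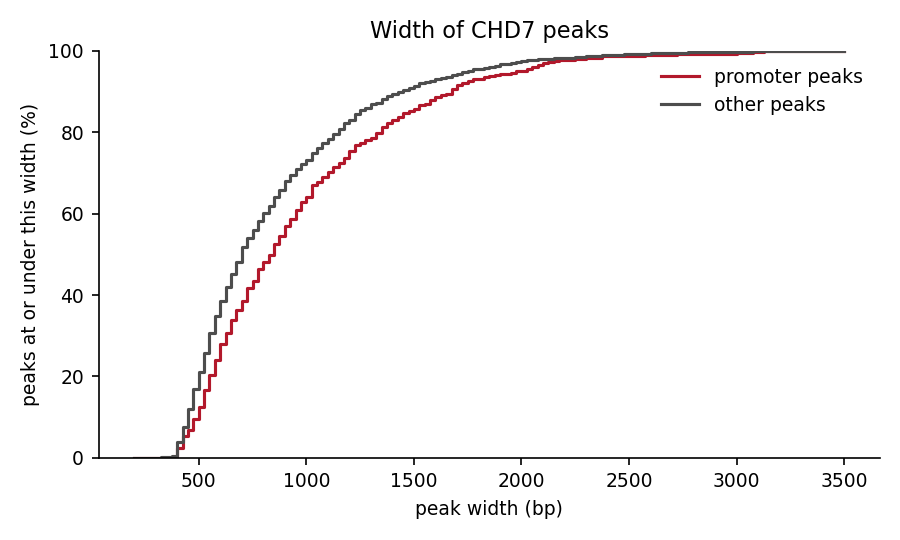
Cumulative curves show the percentage of peaks (vertical axis) at or under each width in bp (horizontal axis) for the 585 promoter peaks and the 3176 other peaks. The curve of the promoter peaks lies to the right, with medians of 826 and 687 bp.

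Within the promoter peaks, width varied with position and base composition. The median was 718.5 bp for the 194 members within 100 bp of a 5′ end, 853.5 bp from 100 to 300 bp, 984 bp from 300 to 600 bp and 848 bp from 600 to 1000 bp. Members at main start sites and at alternative ends had medians of 827.5 and 794 bp and quartile ranges of 587.5 to 1196 and 572 to 1186 bp. CpG-rich members, defined below, had a median of 770.5 bp and the other members 850 bp.

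The widest members lay at genes of unlike function. The 2 widest were at Zfp78, a zinc finger gene (3320 bp, chr7:6360875-6364194), and at Jph2, which encodes the junctophilin that ties the sarcoplasmic reticulum to the plasma membrane of cardiomyocytes (3123 bp, chr2:163396649-163399771). Their midpoints lay 746 and 216 bp upstream of the 5′ end. Next came alternative or main ends of Ubr4, a ubiquitin ligase gene (3056 bp), Lin7b, a scaffold protein gene (2992 bp), Chat, the gene of choline acetyltransferase (2924 bp), and Rexo1, an RNA exonuclease gene (2720 bp). The member in an intron of Tpm1 was 2575 bp wide (chr9:67043168-67045742). The remaining 3 were at the shared start of Prpf4, a splicing factor gene, and Cdc26, a gene of the anaphase-promoting complex (2558 bp), at Acad8, a mitochondrial dehydrogenase gene (2354 bp), and at 1500009C09Rik (2352 bp). Of these 10 members, those at Rexo1 and at Prpf4 and Cdc26 met the criteria for a CpG-rich window.

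Most promoter peaks lay at the 5′ ends of 1 gene. The 5′ ends within 1 kb of the midpoint were those of 1 protein-coding gene for 533 members (91.1%). They were those of 2 genes for 50 members (8.55%) and of 3 or more for 2. A pair of genes starting head to head on opposite strands lay at 41 members (7.01%). In all, 629 of 21911 genes had a promoter peak, which is a background of 2.87% (95% CI 2.66 to 3.10) for every gene group below. Of the 629 genes, 69 (11.0%) had a main start site head to head with another, against 6.89% of the genes without a promoter peak, a difference of 4.08 points (95% CI 1.84 to 6.78). A peak between such genes counts for both of them.

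No gene had more than 2 promoter peaks, and 10 genes had 2. At Aars, the gene of alanyl-tRNA synthetase, 1 member was at the main start site, 23 bp upstream of a 5′ end and CpG-rich, and the other lay 317 bp downstream of an alternative end inside the gene. Adk, the adenosine kinase gene, had 1 member 3 bp upstream of a 5′ end in the start region it shares with Ap3m1 (GC content 64.2%) and 1 in an intron (GC content 38.0%). The members of Cdon were 738 bp downstream of a 5′ end at the main start site and 172 bp upstream of an alternative end. Those of Dnase2a, a lysosomal nuclease gene, were 303 and 796 bp upstream of their 5′ ends, and those of Has3, a hyaluronan synthase gene, were 457 bp upstream and 859 bp downstream of theirs. At each of these 5 genes, the first by symbol, 1 of the 2 members was at a main start site and the other was not. This did not hold for all 10 genes. Neither member of Schip1 had a main start site within 1 kb, and both members of Lrriq4 had one.

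Promoter peaks were far richer in CpG than the other CHD7 peaks. A 500 bp window around the midpoint was called CpG-rich when its GC content was at least 55% and its CpG ratio, the observed number of CpG dinucleotides over that expected from the base composition, was at least 0.6. This held for 206 members (35.2%, 95% CI 31.5 to 39.2) and for 20 of 3176 other peaks (0.630%, 95% CI 0.408 to 0.971), a difference of 34.6 points (95% CI 30.8 to 38.5). Around the main start sites of all genes the share was 46.6% (95% CI 46.0 to 47.3). Those windows are centred on the start, and those of the members on midpoints up to 1 kb from a 5′ end. With the window on the main start site, 406 of the 629 genes with a promoter peak were CpG-rich (64.5%, 95% CI 60.7 to 68.2). Median GC content was 55.6% in the members, 47.0% in the other peaks and 58.0% at all start sites. The median CpG ratio was 0.549, 0.192 and 0.612 in the same order. Because many mouse promoters are CpG-rich, a gap between peaks at and away from 5′ ends follows in part from how the members were chosen.

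CpG-rich windows were most frequent among the members nearest to a 5′ end. The share was 54.6% (95% CI 47.6 to 61.5) in the 194 members within 100 bp, 39.2% (32.3 to 46.6) in the 176 from 100 to 300 bp, 17.7% (12.1 to 25.2) in the 130 from 300 to 600 bp and 9.41% (4.85 to 17.5) in the 85 from 600 to 1000 bp. Of the CpG-rich members, 81.1% (95% CI 75.2 to 85.8) lay within 250 bp of the 5′ end, compared with 45.4% (95% CI 40.4 to 50.4) of the other members. At main start sites 191 of 414 members (46.1%) were CpG-rich and at alternative ends 15 of 171 (8.77%), a difference of 37.4 points (95% CI 30.3 to 43.2). Smarcd2, Maml1 and Gsk3b are examples of the first kind, with CpG ratios of 0.919, 0.909 and 0.761. Tpm1 and Ubr4 are examples of the second, with ratios of 0.314 and 0.119. Among the 20 CpG-rich peaks away from promoters, 9 lay 1 to 5 kb from a protein-coding 5′ end and 3 had the 5′ end of a lncRNA within 1 kb.

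**Figure D3:**
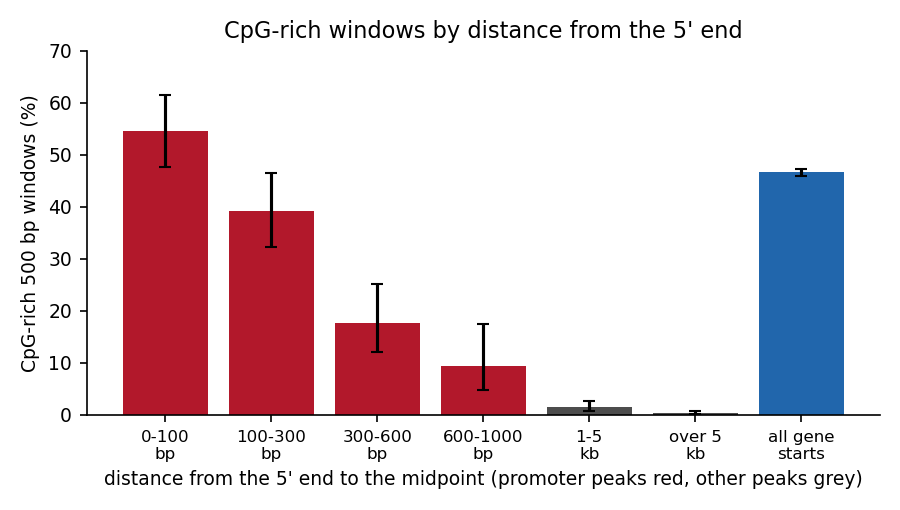
Bars give the percentage of CpG-rich 500 bp windows (vertical axis) by distance from the 5′ end to the midpoint for promoter peaks (red) and other peaks (grey), and for the main start sites of all genes (blue), with Wilson 95% intervals. The share falls from 54.6% within 100 bp to 9.41% beyond 600 bp, and is 46.6% at all start sites, in windows centred on the start.

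Genes with a CpG-rich main start site had a promoter peak more often than other genes. A member was found at 406 of 10216 CpG-rich genes (3.97%, 95% CI 3.61 to 4.37) and at 223 of 11695 others (1.91%, 95% CI 1.67 to 2.17), a difference of 2.07 points (95% CI 1.62 to 2.53). The share of genes with a member also went with the number of annotated 5′ ends of the gene, each of which gives a peak another chance to count. It was 1.09% of genes with 1 end, 1.86% with 2 to 3, 3.91% with 4 to 7 and 5.44% with 8 or more. Among genes with a single end, the intervals of CpG-rich and other genes did not overlap (2.28%, 95% CI 1.57 to 3.30, and 0.707%, 95% CI 0.483 to 1.03). Nor did they with 2 to 3 ends (2.90%, 95% CI 2.32 to 3.62, and 1.26%, 95% CI 0.968 to 1.63). With 4 to 7 ends the intervals overlapped (4.25%, 95% CI 3.68 to 4.91, and 3.39%, 95% CI 2.76 to 4.14). For genes with 8 or more ends the shares were 5.52% (95% CI 4.66 to 6.52) and 5.26% (95% CI 4.03 to 6.83), and a difference was not detectable at these numbers.

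Promoter peaks held motifs of widely expressed promoter factors more often than the other CHD7 peaks did, and the GATA motif and the TATA box less often. For this comparison, 16 consensus motifs were searched on both strands of the 200 bp around each midpoint. Relative to the other peaks, 8 motifs had a higher share in promoter peaks, 6 a lower share, and the interval of the difference included 0 for 2. None of the 8 had a higher share in promoter peaks than at the main start sites of all genes. The shares there were 9.73% for ETS, 1.93% for NRF1 and 29.9% for the CCAAT box, beside 5.98%, 0.855% and 29.7% of members. As members were chosen for lying at 5′ ends, the gap from the other peaks follows in part from that choice. Over the 5 alternative windows and choices of peaks, the interval stayed clear of 0 for the GC box, ETS, YY1 and the cAMP response element among the higher motifs, and for GATA and the TATA box among the lower ones. The letters of MEF2 (TATTTATAG) hold the 6 letters TTTATA, which are a TATA box match on the other strand, and no other motif is contained in another. A match is a description of the sequence and not of binding.

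The GC box (GGGCGG) differed most. It was in 178 members (30.4%), 149 other peaks (4.69%) and 41.9% of windows from 150 bp upstream to 50 bp downstream of all main start sites. The difference between promoter peaks and other peaks was 25.7 points (95% CI 22.1 to 29.6). Its size went with the window, being 14.9 points in 100 bp and 54.1 points over the whole peak. Over the whole peak, here and for the motifs below, promoter peaks also offered more sequence to match (median widths of 826 and 687 bp). The CCAAT box (CCAAT) was in 29.7% of members and 24.7% of other peaks (difference 5.03 points, 95% CI 1.15 to 9.13), and the ETS motif (CCGGAAG) in 5.98% and 1.01% (difference 4.98 points, 95% CI 3.27 to 7.22, and 13.8 points over the whole peak). Rarer motifs with a higher share were those of YY1 (AAGATGGCG, 1.20% and 0.0630%), NRF1 (GCGCATGCG, 0.855% and 0.157%), the cAMP response element (TGACGTCA, 0.855% and 0.157%), the E-box of MYC and USF (CACGTG, 4.79% and 2.80%) and the ZBTB33/BANP motif (TCTCGCGAG, in 4 members and 0 of 3176 other peaks, which allows a share of up to 0.0945%). All of these motifs but the CCAAT box hold a CG in their letters. The GC box was in 52.4% of CpG-rich members and 18.5% of the other members, the ETS motif in 12.1% and 2.64%, and the CCAAT box in 32.0% and 28.5%. In the 20 CpG-rich peaks away from promoters, these 3 motifs were in 12 (60%), 2 (10%) and 6 (30%), beside 52.4%, 12.1% and 32.0% of CpG-rich members.

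The motif of the GATA family (AGATAA) was in 38 members (6.50%) and 406 other peaks (12.8%), a difference of -6.29 points (95% CI -8.39 to -3.74, and -13.2 points over the whole peak), and in 5.73% of all main start sites. The other motifs with a lower share were the TATA box (TATAAA, 5.47% and 10.1%), TEAD (GGAATG, 9.06% and 12.2%), AP-1 (TGANTCA, 4.10% and 7.12%), ISL1 and related LIM homeodomain proteins (CTAATNG, 2.74% and 5.57%) and T-box factors (AGGTGTG, 2.74% and 4.88%). The interval came to include 0 for TEAD in all 5 alternatives, for T-box in 4, for AP-1 in 2 and for ISL1 in 1. The core motif of CTCF (CCANNAGGG) was in 4.10% and 3.78%, and that of MEF2 in 2 members and 2 other peaks, and neither difference was detectable at these numbers. GATA motifs were in 1.94% of CpG-rich members and 8.97% of the others, and in 4.83% of members at main start sites and 10.5% of those at alternative ends. The members at Tpm1 and Ubr4, printed above, are among the latter. The promoter peaks also had the higher GC content (medians of 55.6% and 47.0%), and its part in these differences was not tested.

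**Figure D4:**
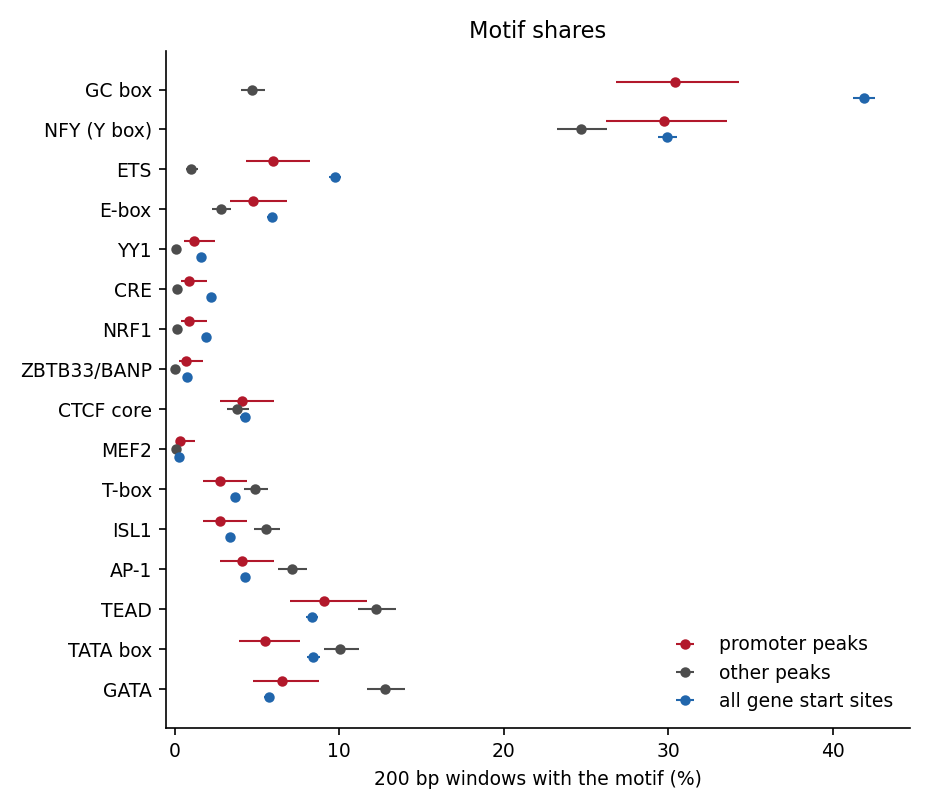
Points give the percentage of 200 bp windows with each motif (horizontal axis) in promoter peaks, other peaks and at the main start sites of all genes, with Wilson 95% intervals, ordered by the difference between promoter and other peaks. NFY (Y box) is the CCAAT box. The GC box is at 30.4%, 4.69% and 41.9%, and GATA at the bottom is at 6.50%, 12.8% and 5.73%.

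The main start sites of the 629 genes with a promoter peak were also compared with those of the other 21282 genes. A GC box lay in the start window of 61.8% of the former and 41.3% of the latter (difference 20.5 points, 95% CI 16.6 to 24.3), and a CCAAT box in 37.0% and 29.7% (difference 7.31 points, 95% CI 3.57 to 11.2). TATA boxes were in 4.61% and 8.54% (difference -3.93 points, 95% CI -5.37 to -1.96), and GATA motifs in 3.50% and 5.80% (difference -2.30 points, 95% CI -3.52 to -0.533). The intervals of the other 12 motifs included 0, ETS among them (9.22% and 9.75%). Of the 629 genes, 64.5% had a CpG-rich main start site, compared with 46.6% of all genes. The part of this in the motif differences was not tested. Some of the 629 genes had a promoter peak only at an alternative 5′ end, so the start window scored was not where their peak lay.

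Motif content varied widely among members. None of the 16 motifs was in the window of 170 members (29.1%), 1 kind was in 240, 2 kinds in 127, 3 kinds in 45 and 4 kinds in 3. Those 3 members lay 148 bp upstream of Plppr2, 6 bp upstream of Prdx1, a peroxiredoxin gene, and 62 bp upstream of Cenpf, a kinetochore protein gene. The members at Spag7 and at Cic, a transcriptional repressor gene, followed with 3 kinds. All 5 were CpG-rich, at a main start site and held a GC box.

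Promoter peaks were then counted at cardiac genes, and the intervals of all 3 lists held the share of all genes. Of 35 cardiac transcription factor genes, 1 had a promoter peak (2.86%, 95% CI 0.506 to 14.5), beside the background of 2.87%. None of 30 genes of the second heart field and pharyngeal mesoderm had one, which allows a share of up to 10%. Of 43 sarcomere and contractile genes 2 had one (4.65%, 95% CI 1.28 to 15.5), and both lay at alternative 5′ ends. The member at Tpm1 was 492 bp upstream of such an end, and that at Myh10 was 999 bp downstream of one and in a 3′ UTR (chr11:68814878-68815845). With 1 start site per gene, neither gene would have had a promoter peak.

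The distance to the nearest CHD7 peak outside the promoter varied widely among the same genes. It was 1 to 100 kb for 16 of the 35 cardiac transcription factor genes (45.7%, 95% CI 30.5 to 61.8), 16 of the 30 second heart field and pharyngeal genes (53.3%, 95% CI 36.1 to 69.8) and 18 of the 43 contractile genes (41.9%, 95% CI 28.4 to 56.7). All 3 intervals held the share of all genes, 7997 of 21911 (36.5%). It was 1789 bp away for Meis1, 3655 bp for Gata4 and 6012 bp for Gata6, which encode transcription factors of cardiac mesoderm, and 365835 bp for Nkx2-5 and 1011015 bp for Mef2c, which do so too. The median over the 35 genes was 103236 bp. It was 4937 bp away for Foxc2, a forkhead gene of the second heart field and pharyngeal list. Among contractile genes it was 1672 bp away for Acta2, which encodes smooth muscle actin.

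Chromatin genes had a few promoter peaks. Of 40 genes of CHD and BAF remodellers 2 had one (5.00%, 95% CI 1.38 to 16.5), and both encode BAF subunits. The member at Smarcd2 was 767 bp wide and centred 146 bp upstream of a 5′ end at the main start site (chr11:106272736-106273502). That at Actl6a was 1706 bp wide and centred 147 bp downstream (chr3:32708060-32709765), with a CpG ratio of 0.984 and an ETS motif. Of 60 Polycomb and histone modifier genes 3 had one (5.00%, 95% CI 1.71 to 13.7). They were Tet1, a 5-methylcytosine dioxygenase gene (169 bp downstream of an alternative end), Pcgf6, a Polycomb subunit gene (243 bp upstream, at its main start site), and Jarid2, a gene of a PRC2 cofactor (877 bp upstream of an alternative end).

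Signalling genes with a promoter peak acted at several levels of their pathways. In the WNT pathway 4 of 56 genes had one (7.14%, 95% CI 2.81 to 17.0). These were the ligand gene Wnt5b, with 1 member 339 bp upstream at its main start site and 1 at an alternative end, the receptor gene Lgr4 (249 bp upstream), the receptor-directed ubiquitin ligase gene Rnf43 (653 bp upstream of an alternative end) and the kinase gene Gsk3b (7 bp downstream). In the FGF pathway 2 of 36 had one, the kinase gene Mapk3 and Dusp6, a phosphatase gene induced by ERK signalling (75 bp upstream, at its main start site). The BMP and TGF-beta list had 1 of 44 (Smad3, 972 bp downstream of an alternative end), the Notch list 1 of 32 (Maml1) and the hedgehog list 1 of 18 (Cdon). The shares were 2.27% (95% CI 0.402 to 11.8) for BMP and TGF-beta, 3.13% (95% CI 0.554 to 15.7) for Notch and 5.56% (95% CI 1.54 to 18.1) for FGF. Each of these intervals held the background of 2.87%. No ligand or receptor gene of these 3 lists had a promoter peak, which at such low counts is no result about pathway level. None of 20 retinoic acid pathway genes had one, which allows a share of up to 15%.

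Markers of other cell types and general cell functions were counted in the same way. Promoter peaks were found at 2 of 22 pluripotency genes (Klf4 and Tet1), at 1 of 24 endothelial and blood genes (Spi1, a myeloid and lymphoid transcription factor gene), at 1 of 16 endoderm genes (Cer1) and at 0 of 25 neural and neural crest genes, which allows a share of up to 12.0%. Of 51 genes of the cell cycle and replication, 3 had one, namely Cdc6, a gene of replication licensing (65 bp upstream), Cdk4 (125 bp upstream) and Cdc25a (493 bp upstream). Proteasome genes had 4 of 50 (8.0%, 95% CI 3.15 to 18.8), among them the catalytic subunit gene Psmb5, 32 bp upstream. Splicing factors had 4 of 68 (5.88%, 95% CI 2.31 to 14.2), with Prpf8, a core spliceosome gene, 24 bp upstream. The respiratory chain had 4 of 90 (4.44%, 95% CI 1.74 to 10.9), all of complex I, and ribosomal protein genes 3 of 87 (3.45%, 95% CI 1.18 to 9.65).

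Of the 35 lists, the interval held the background of 2.87% for 30. It lay above for 3, the KLF and SP factors (Klf4, Sp1 and Sp2, 3 of 25, 12.0%, 95% CI 4.17 to 30.0), actin regulators (Arhgef2, Evl, Iqgap1 and Pfn2, 4 of 40, 10%, 95% CI 3.96 to 23.1) and the proteasome. It lay below for 2, olfactory receptor genes (3 of 1134, 0.265%, 95% CI 0.0900 to 0.775) and vomeronasal and taste receptor genes (0 of 365, which allows a share of up to 0.822%). The main start sites of these lists differed in base composition, with 76.0% CpG-rich among KLF and SP factors, 90.0% among actin regulators, 80.0% among proteasome genes and 0 among olfactory receptor genes. The members at Klf4, Sp1 and Sp2 were centred 991, 624 and 516 bp upstream, so none of these genes would count with a limit of 500 bp. With 35 lists set side by side, a few intervals apart from the background are no result about a single list.

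**Figure D5:**
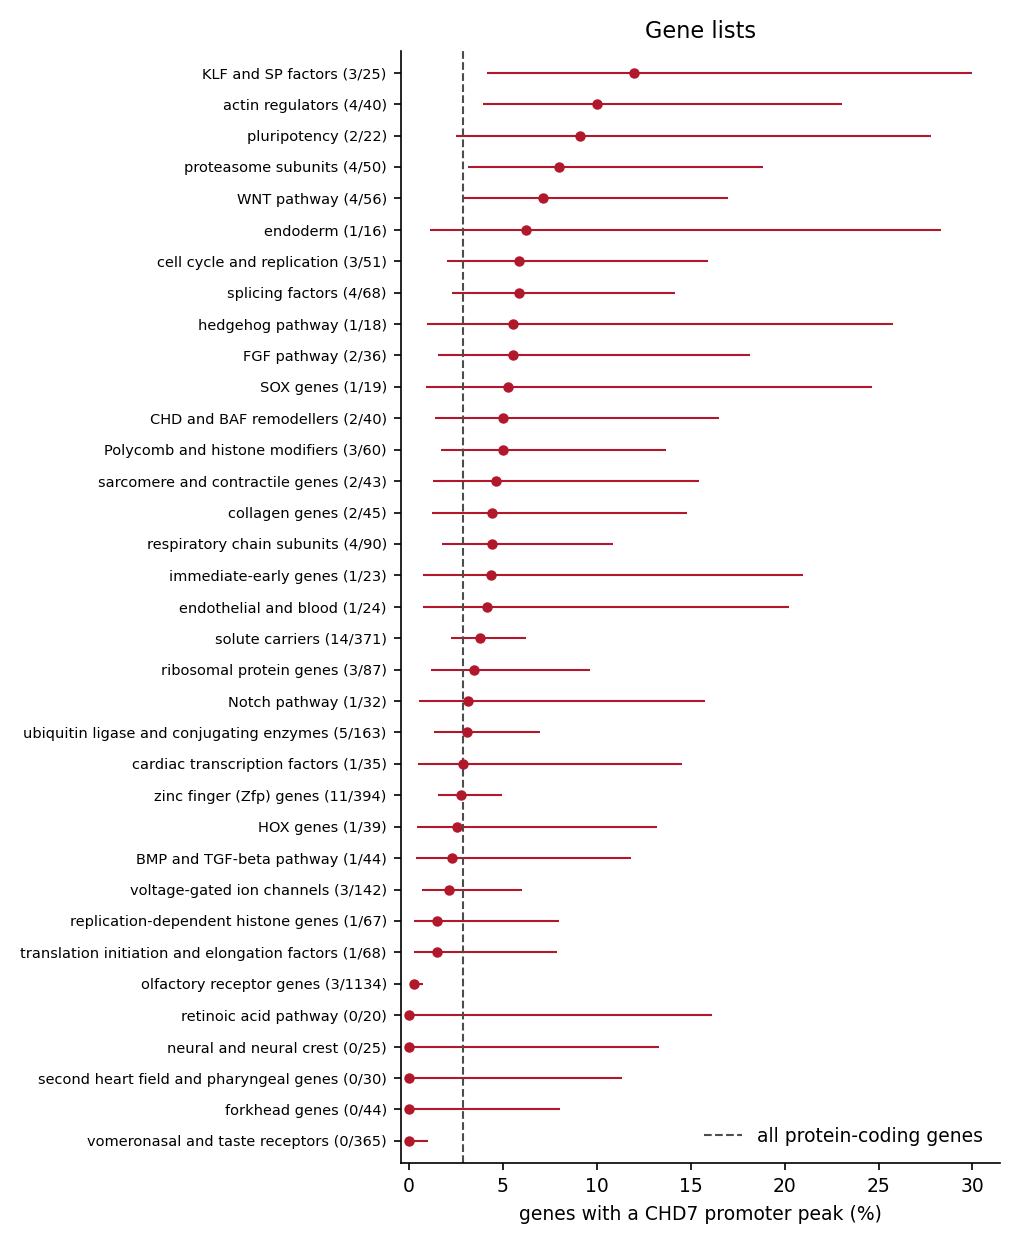
Points give the percentage of genes with a CHD7 promoter peak (horizontal axis) in each of 35 gene lists, with Wilson 95% intervals and, in brackets, the genes with a peak over the genes in the list. The dashed line is the 2.87% of all protein-coding genes, which lies inside 30 of the 35 intervals.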

How the data were processed

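CUT&RUN libraries were made from CP cells with anti-CHD7, IgG or no antibody, in 3 biological replicates each. The authors trimmed the reads with fastp 0.20.1, aligned them to mm10 with BWA 0.7.17.4, used JE-Suite and molecular identifiers to remove duplicates, ran MACS2 2.1.2 per sample against IgG, and kept peaks found in at least 2 replicates. The submitters' processing notes also name deepTools 3.1.0. The deposited values are start and end positions in bp of 1 peak list for the 3 CHD7 replicates together, with no counts, signal or score, so the number of peaks, not sequencing depth, sets the precision given here.

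Starts were read as counted from 0, and no peak overlapped another. Distances ran from the midpoint to the 5′ ends that GENCODE M21 gives for protein-coding genes, whatever the transcript type, and sequence was read from GRCm38.p6, the assembly of mm10. The main start site of each of 21911 genes (mitochondrial genes left out) was that of the transcript ranked first by coding status, APPRIS level and spliced length, in that order. CpG content was taken in 500 bp windows and motifs in 200 bp windows, or from 150 bp before to 50 bp after a main start site. Shares carry Wilson and differences Newcombe 95% intervals, medians order-statistic 95% intervals, and a count of 0 a limit of 3 counts. No hypothesis test was run, because the list holds no value per replicate.

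The members, gene lists, motifs and comparisons were chosen with earlier results of these data known. The genes named are the 10 widest members, the genes with the most members (up to 5, by symbol), the 3 peaks on either side of the limit, up to 6 genes of each list by distance and the 5 members with the most kinds of motif. Genes named for a nearest peak outside the promoter, and Pja1, Schip1 and Lrriq4, were chosen after their values were seen. Alternatives were other sets of 5′ ends, limits, windows, peak edges and peak subsets. The functions were tested on simulated data. Python 3.11.15, numpy 2.4.6, scipy 1.17.1 and matplotlib 3.10.9 were used. A few genes that the rule names, and a sequence, are not reported here. Reads were not used here, nor were values of the IgG and Input groups.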

Additional observations from a re-analysis of the deposited data

How the results depend on the processing

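The differences in CpG-rich windows, in the 14 motif shares called and between CpG-rich and other genes kept their direction under the alternatives run for them. For width, the alternatives cover the median of the members and not the difference from other peaks. The share of peaks at promoters, 15.6%, was 13.5% with protein-coding transcripts only, 11.0% with 1 start site per gene, 12.5% with the basic set of transcripts, 18.7% with transcripts of all gene types, 12.3% with a limit of 500 bp, 20.7% with 2 kb, 17.8% by the nearest edge of the peak and 19.0% of the peaks wider than the median. It stayed within its interval with starts counted from 1 and with peaks within 1 kb merged. The share of genes with a promoter peak, 2.87%, was 2.51% with protein-coding transcripts only, 2.08% with 1 start site per gene, 2.31% with a limit of 500 bp, 3.82% with 2 kb, 2.63% for the gene with the nearest 5′ end alone and 3.29% by the nearest edge. The difference in CpG-rich windows, 34.6 points, was 45.1 points with 1 start site per gene and 41.1 with a limit of 500 bp, and the difference between CpG-rich and other genes, 2.07 points, was 1.56 points with that limit. The number of motifs with a lower share fell from 6 to 4 with the 100 bp window (without TEAD and ISL1), with the whole peak and with 1 start site per gene (without TEAD and T-box), and to 3 with a limit of 500 bp and among the peaks wider than the median (without TEAD, T-box and AP-1). Those with a higher share fell from 8 to 4 among the wider peaks (without the CCAAT box, NRF1, the E-box and the ZBTB33/BANP motif), and the E-box was also lost with the 100 bp window. The whole peak moved the differences of the TATA box to -9.93 points, AP-1 to -6.48, ISL1 to -5.10, the E-box to 6.07, YY1 to 3.37, the cAMP response element to 3.01 and NRF1 to 2.34. The 100 bp window moved ETS to 2.47 and YY1 to 0.481. Median width kept within its interval under all 5 alternatives. The cause of these changes was not tested.

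No paired analysis was possible because the list pools the 3 CHD7 replicates and gives no value for a single replicate. For the same reason no replicate was left out in turn, and without scores no stricter calling threshold was tried.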

Other observations

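Promoter peaks were unevenly spread over the chromosomes. On the X chromosome 1 of 948 genes had one (0.105%, 95% CI 0.0186 to 0.595), against 628 of 20780 autosomal genes (3.02%, 95% CI 2.80 to 3.26), a difference of 2.92 points (95% CI 2.38 to 3.17). The X-linked gene was Pja1, a ubiquitin ligase gene, with a CpG-rich member 444 bp wide centred 176 bp downstream of a 5′ end (chrX:99470275-99470718), although the window at its own main start site did not meet the CpG criteria. CHD7 peaks of any position were also few on this chromosome, 14 of 3761 (0.372%, 95% CI 0.222 to 0.624). Fewer X-linked than autosomal genes had a CpG-rich main start site (26.7% and 47.9%), yet none of the 253 CpG-rich X-linked genes had a member, which allows a share of up to 1.19%, compared with 4.08% (95% CI 3.70 to 4.48) of CpG-rich autosomal genes. The number of X chromosomes in the cells and the read coverage of the X were not given in the sources used here, and their part in this was not tested.

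Among autosomes the share of genes with a promoter peak ran from 2.11% on chromosome 16 (14 of 662) to 4.74% on chromosome 19 (34 of 718). Chromosome 19 also had the highest share of its CHD7 peaks at promoters, 25.8% (32 of 124). Members lay at 3 olfactory receptor genes, Olfr1512, Olfr874 and Olfr1330, and no gene of that list had a CpG-rich main start site. Of all 585 members, 40 (6.84%) had another CHD7 peak within 10 kb, compared with 5.45% of the other peaks, a difference of 1.39 points whose interval included 0 (95% CI -0.576 to 3.84). In 18 members (3.08%) another member lay within 10 kb.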
